A study of Vitis vinifera with 6 samples.

Results

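Flavonols are colourless flavonoids that collect in the outer tissues of grapevine leaves and berries and absorb ultraviolet light. Their synthesis responds to light through the bZIP transcription factor HY5 and its close relative HYH. The MYB factor MYBF1 activates flavonol synthase in grapevine, and this enzyme turns dihydroflavonols into flavonols. The glycosyltransferases GT5 and GT6 then add a sugar or sugar acid to the finished flavonol, GT5 from UDP-glucuronic acid and GT6 from UDP-glucose or UDP-galactose. The loci examined here were these 2 light-signalling factors (VIT_04s0008g05210 for HY5 and VIT_05s0020g01090 for HYH), MYBF1 (VIT_07s0005g01210), a pair of flavonol synthase loci (VIT_18s0001g03470 and VIT_18s0001g03430, called FLS-03470 and FLS-03430 below), GT5 (VIT_11s0052g01600) and GT6 (VIT_11s0052g01630). They were chosen by locus name, with earlier results of these data known. Each of the 7 loci had 1 probe among the 34369 non-control probes of the array. The names come from knowledge of grapevine genes, since the files give locus names alone.

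Leaf RNA was compared between 3 control samples and 3 samples labelled as overexpressing CARPO, a NAC transcription factor, all from the red cultivar Syrah, clone BVRC12. All plants had been raised from anther callus and grown in a greenhouse, and fully expanded leaves were taken. The labels state neither the promoter of the transgene, nor which transgenic line each sample came from, nor what construct, if any, the controls carried, and plant age is not given. The tissue was not checked against leaf markers.

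The probe of VIT_08s0007g07670, the locus known from outside the files as CARPO, had an intensity of 271 on labelled overexpression replicate 3. It was 10.1 and 15.1 on labelled overexpression replicates 1 and 2, and 12.4, 50.4 and 25.3 on the controls. The label is therefore not borne out by this probe for labelled overexpression replicates 1 and 2, and "labelled overexpression" is used throughout. By the barcode and scan date recorded with each array, labelled overexpression replicate 3 was also alone on its slide and in its scan. Whether the barcode stands for a slide was not checked. Labelled overexpression replicate 3 had 2103 outlier spots against 15 to 607 on the other arrays. The share of probes well above background ran from 68.4% to 74.5%, and the 75th percentile of spot intensity lay between 668 and 1234. Levels below are log2 intensities relative to that percentile, so that a level of 0 equals the array's own 75th percentile.

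On each of the 6 arrays, all 7 probes were marked as well above background, and none of their spots was saturated or an outlier. The dimmest was GT6, whose median spot signal was 3.0 to 9.0 times its local background. With limma, 0 of the 7 passed a Benjamini-Hochberg adjusted p of 0.05, where 0.08% of the 23752 probes tested did (19 probes). At an unadjusted limma p under 0.05 there were 3 of 7 (HYH, MYBF1 and FLS-03430), against 15.1% of all probes. This count was 1 without control replicate 1 (2569 of 24195 over all probes) or control replicate 3 (2087 of 23550). It was 2 without labelled replicate 3 (4646 of 24350), with slide as a block (4609 of 23752) or with the replicate block (3096 of 23752). It was 4 with quantile normalization (3536 of 23752) and with the background filter on all 6 arrays (3213 of 21154). The count was also 4 with scan as a block (5039 of 23752) and without labelled replicate 2 (4581 of 22223). The table of processed values that the authors deposited also gave 4, where 7374 of its 23065 probes were under that p. Without its column of labelled replicate 3 it gave 2, where 4587 probes were. The groups did not overlap at 3 of 7 loci (HY5, HYH and FLS-03430), each time with the labelled arrays higher, against 10.5% of probes without overlap in that direction. The fitted difference was at least 2-fold at 4 of 7 (HYH, MYBF1 and both flavonol synthases), against 17.7% of all probes tested. The 7 differences did not share a sign: 4 were positive and 3 negative, with a median of 0.13 on the log2 scale against 0.0038 over all probes. In bulk leaf RNA, fewer cells of a type and less RNA per cell cannot be told apart.

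**Figure D1:**
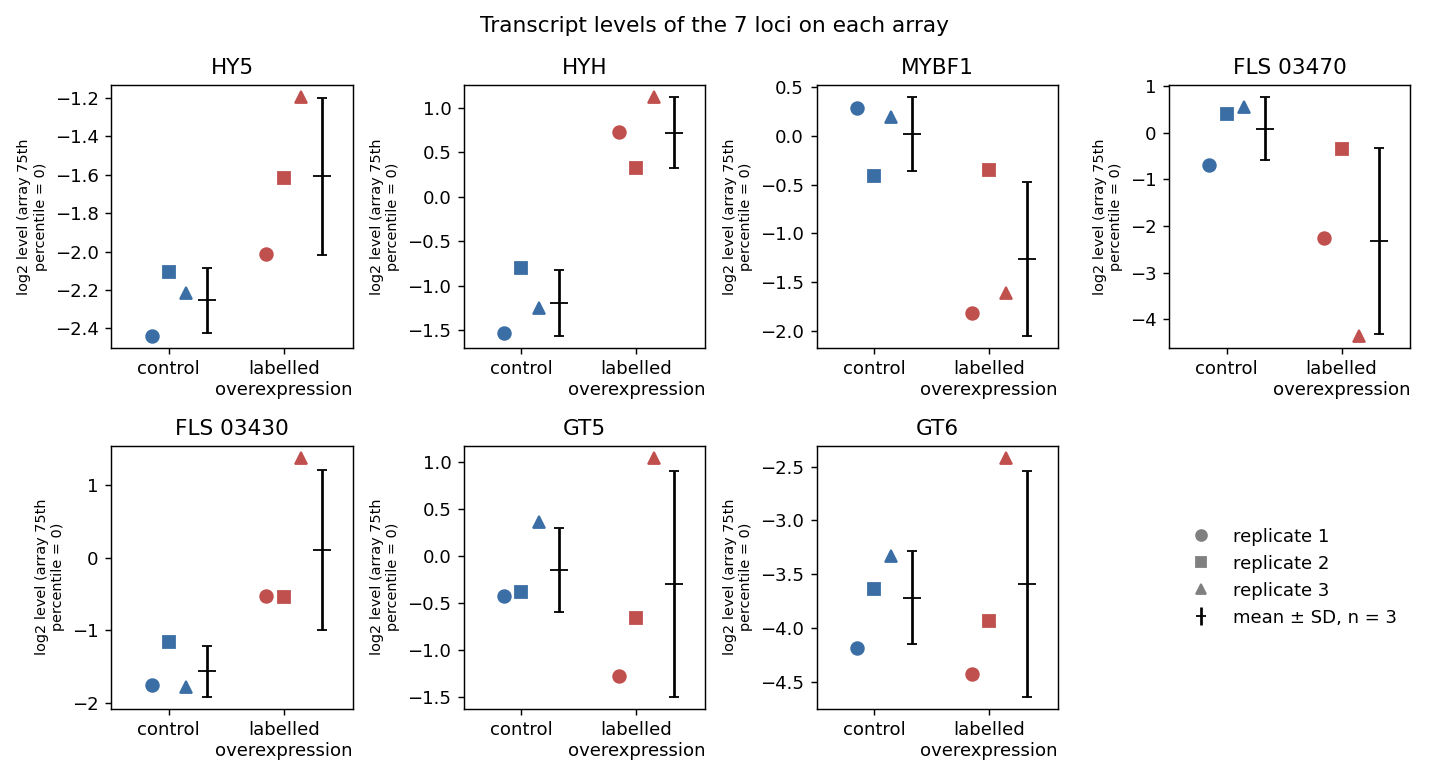
Log2 level of each locus relative to the array's 75th percentile (vertical axis, scaled separately in each panel) for control (blue) and labelled overexpression (red) arrays, with the symbol giving the replicate number and the bars the mean and SD of 3 arrays. HY5, HYH and FLS-03430 show no overlap between groups, while labelled replicate 2 lies within the control range for MYBF1, FLS-03470 and GT6, and the labelled arrays lie on both sides of the controls for GT5.

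HYH had the smallest p of the 7. The controls had intensities of 316, 471 and 435, in the order of their replicate numbers, and the labelled arrays 1104, 1542 and 2012. Every labelled array was thus above every control. The mean log2 level was -1.19 ± 0.37 in controls and 0.72 ± 0.40 in labelled arrays (SD, n = 3 each). The limma difference of 1.91 (SE 0.31, 95% interval 1.15 to 2.68), a 3.77-fold difference, had an adjusted p of 0.0965 and did not pass. By exact permutation (two-sided) p was 0.1, the smallest that 3 against 3 arrays allow. Among all probes tested, 0.808% had a smaller limma p and 4.93% a larger absolute difference. The difference was 2.25 within scan 1 (1 array each) and 1.34 within scan 2 (1 labelled array against 2 controls), and scan 3 held no control. Against the control mean, the labelled arrays lay at 1.92, 1.51 and 2.31, so that HYH was high on replicates 1 and 2 as well as on replicate 3, which had the raised CARPO probe.

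HY5 lay in the same direction as HYH with a smaller difference. Its intensity was 168, 190 and 223 in the controls and 166, 403 and 404 in the labelled arrays. The lowest labelled array was close to the lowest control in intensity and stood above the controls only after scaling, at a log2 level of -2.01 against a highest control of -2.11. The mean log2 level was -2.25 ± 0.17 in controls and -1.61 ± 0.41 in labelled arrays (SD, n = 3 each). The limma difference was 0.65 (SE 0.28, 95% interval -0.02 to 1.32, adjusted p 0.346), and the exact permutation test gave p = 0.1. Within scans 1 and 2 it was 0.43 and 0.55, and it was 0.40 with array weights and 0.43 with normexp background correction. The within-array difference between HYH and HY5 was 0.91, 1.31 and 0.96 in controls and 2.74, 1.94 and 2.32 in labelled arrays. The labelled arrays were all higher in this ratio, by 1.27 on the log2 scale. This contrast, like the other within-array contrasts given here, was chosen after the values were seen and is given with no test.

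MYBF1, the activator of flavonol synthase, had a difference of the other sign. Its intensity was 1107, 614 and 1183 in controls, and 190, 964 and 303 in labelled arrays. Labelled overexpression replicates 1 and 3 were below every control, and replicate 2 lay within the control range. The log2 level was 0.02 ± 0.38 in controls and -1.26 ± 0.79 in labelled arrays (SD, n = 3 each). The limma difference was -1.28 (SE 0.45, 95% interval -2.36 to -0.19, adjusted p 0.265; exact permutation p = 0.2). Within scan 1 it was -2.10, and within scan 2, which holds labelled replicate 2, it was -0.24. Without labelled overexpression replicate 2 the difference was -1.73 with an adjusted p of 0.0879, still short of the threshold, and with normexp it was -0.78.

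The fitted differences of HYH and MYBF1 were thus of opposite sign on the same arrays. HYH minus MYBF1 was -1.81, -0.38 and -1.44 in controls and 2.54, 0.68 and 2.73 in labelled arrays. Every labelled array was above every control, by 3.19 on average. The pair was chosen for its opposite signs, so this is a description with no test.

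The 2 flavonol synthase probes, whose locus numbers lie close together, also had differences of opposite sign. FLS-03470 had an intensity of 563, 1077 and 1517 in controls and of 139, 964 and 45.1 in labelled arrays. The value of 45.1 is a dim one, as the lowest signal marked well above background on labelled replicate 3 was 23.4. Over the 6 arrays, the lowest median spot signal of this probe was 3.6 times its local background. As for MYBF1, labelled replicates 1 and 3 were below every control, and replicate 2 was within the control range. The log2 level was 0.08 ± 0.68 in controls and -2.33 ± 2.0 in labelled arrays (SD, n = 3 each). The limma difference of -2.41 (SE 1.0, 95% interval -4.84 to 0.02, adjusted p 0.336) came with an exact permutation p of 0.2. It rested in part on labelled overexpression replicate 3, without which it was -1.39, and it was -3.39 without replicate 2. Within scans 1 and 2 it was -1.57 and -0.83. It was -1.15 with scan as a block and -1.39 with slide as a block. Labelled replicate 3 was alone in its scan and slide, so neither block fit drew on that array for the difference. The difference was -1.30 with normexp and -1.22 in the table of processed values that the authors deposited. In that table the labelled replicate 3 value was within 0.1% of a scaled mean of labelled replicates 1 and 2.

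FLS-03430 had an intensity of 271, 367 and 301 in controls and of 463, 851 and 2408 in labelled arrays. Every labelled array was above every control, and replicate 3 was far above the other two. The log2 level was -1.56 ± 0.35 in controls and 0.11 ± 1.11 in labelled arrays (SD, n = 3 each). The limma difference was 1.67 (SE 0.57, 95% interval 0.28 to 3.05, adjusted p 0.257; exact permutation p = 0.1). Without labelled overexpression replicate 3 it was 1.03 (adjusted p 0.136), and labelled replicates 1 and 2 lay 1.03 and 1.03 above the control mean. Within scans 1 and 2 the difference was 1.22 and 0.93, and it was 1.0 with array weights, 1.06 with scan as a block and 1.03 with slide as a block. As for FLS-03470, the block fits drew the difference from the other arrays, without labelled replicate 3.

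FLS-03430 minus FLS-03470 on the same array was -1.06, -1.55 and -2.33 in controls, and 1.73, -0.18 and 5.74 in labelled arrays. The balance between the probes was thus higher on every labelled array than on any control, by 4.08 on the log2 scale on average. The size of that shift ranged widely, since the labelled arrays spanned 5.92 and the controls 1.28.

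**Figure D2:**
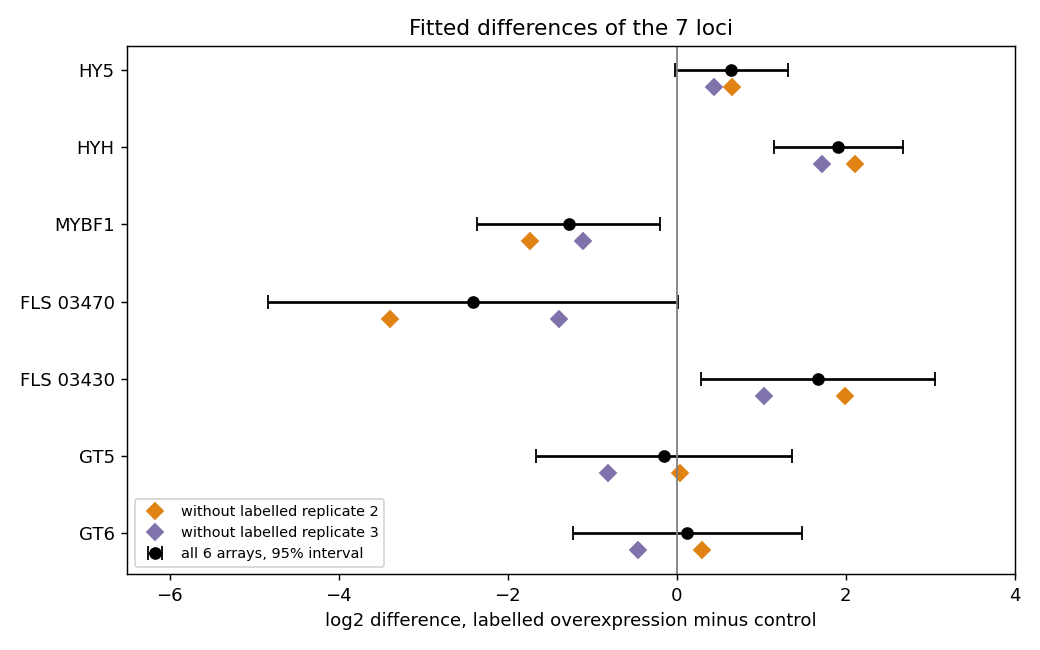
Fitted log2 difference (labelled overexpression minus control, horizontal axis) of each locus with its 95% interval over all 6 arrays (black), and the fitted difference without labelled overexpression replicate 2 (orange) or 3 (purple). The sign of the first 5 loci is kept in both, and that of GT5 and GT6 is not.

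The fitted differences of both glycosyltransferases were smaller than the spread between arrays, and labelled replicate 3 differed in sign from the other labelled arrays. GT5 had an intensity of 680, 628 and 1334 in controls and of 277, 784 and 1914 in labelled arrays. GT6 was dimmer, with 50.1, 65.9 and 103 in controls and 31.2, 81.0 and 173 in labelled arrays. For both, labelled replicate 1 had the lowest log2 level of all arrays and labelled replicate 3 the highest, so that the control range lay inside the labelled range. The log2 level of GT5 was -0.15 ± 0.44 in controls and -0.29 ± 1.20 in labelled arrays, and that of GT6 was -3.72 ± 0.43 and -3.59 ± 1.04 (SD, n = 3 each). The limma difference was -0.15 for GT5 (95% interval -1.66 to 1.37, adjusted p 0.932) and 0.13 for GT6 (95% interval -1.23 to 1.48, adjusted p 0.934), and exact permutation tests gave p = 0.8 and 0.9. These intervals include differences of more than 2-fold either way. GT5 was below every control on labelled replicates 1 and 2, at -1.27 and -0.65 against a lowest control of -0.42, and replicate 3, alone in its scan, was at 1.05. Without labelled overexpression replicate 3 the differences of GT5 and GT6 were -0.82 and -0.46. Within scans 1 and 2 they were -0.85 and -0.65 for GT5, and -0.24 and -0.45 for GT6.

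GT5 and GT6 varied together from array to array. GT5 minus GT6 was 3.76, 3.25 and 3.70 in controls and 3.15, 3.28 and 3.47 in labelled arrays. This quantity spanned 0.51 over the controls and 0.32 over the labelled arrays, while GT5 alone spanned 0.79 and 2.32, and GT6 alone 0.85 and 2.0. Whether the probes of these related loci bind each other's transcript was not tested.

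The labelled arrays were less alike than the controls at all 7 loci. The SD of the log2 level over controls was 0.17 (HY5) to 0.68 (FLS-03470), against a median of 0.25 over the 21507 tested probes with 6 usable spots. Over labelled arrays it was 0.40 (HYH) to 2.0 (FLS-03470), against a median of 0.53. For FLS-03470, 4.08% of those probes had a larger SD over the labelled arrays, whereas for HYH and HY5 63.0% and 62.1% did.

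Other steps of flavonoid synthesis were read from a list of 14 loci drawn up from knowledge of the grapevine annotation and not from the files. Earlier results of these data were known when the list was drawn up, so its counts are descriptions and not a test. The list held 9 loci for the early steps that supply dihydroflavonols (chalcone synthases, chalcone isomerases, flavanone 3-hydroxylases and flavonoid 3'-hydroxylases). The other 5 loci were for enzymes that lead from dihydroflavonols towards anthocyanins and proanthocyanidins. Of 12 loci tested with limma, 0 passed the adjusted threshold in either direction (0.08% of all probes), and 5 had an unadjusted p under 0.05 (15.1% of all probes). The latter count was 2 of 11 without control replicate 3 (2087 of 23550 over all probes) and 3 of 10 without labelled replicate 1 (2950 of 22011). It was 9 of 10 without labelled replicate 2 (4581 of 22223) and 9 of 12 with array weights (4404 of 23752). The 2 listed loci left out of the 12 were VIT_17s0000g07200, which was not well above background on any array, and VIT_00s0361g00040, with 3 outlier spots. A negative difference was fitted at 11 and a positive one at 1, with a median of -1.25 against 0.0038 over all probes. Among the 9 loci with 6 usable spots, 5 had every labelled array below every control, against 13.7% of probes over the array. The median difference was -1.36 over the 8 early loci tested and -1.17 over the 4 later ones.

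The most negative fit in the list was that of VIT_14s0068g00930, listed as a chalcone synthase, the enzyme that opens the flavonoid pathway. Its log2 level was 3.95, 3.75 and 3.68 in controls and 1.02, 2.75 and -1.24 in labelled arrays. All labelled arrays were below the controls, replicate 2 by the smallest margin, and the limma difference was -2.95 (SE 0.95, adjusted p 0.238). The smallest difference was that of VIT_17s0000g04150, listed as a leucoanthocyanidin reductase of the proanthocyanidin branch, at 0.09 (SE 0.37, adjusted p 0.93).

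MYBF1 and FLS-03470, like most of this list, were closest to the controls on labelled replicate 2. Their levels minus the control mean were -1.84 and -2.35 on labelled replicate 1, -0.38 and -0.44 on labelled replicate 2, and -1.63 and -4.44 on labelled replicate 3. The medians of the listed loci were -2.03 and -0.44 on labelled replicates 1 and 2 (12 loci), and -1.96 on labelled replicate 3 (10 loci with a usable spot). At 9 of the 10 listed loci with 3 usable labelled spots, labelled replicate 2 was the nearest of the labelled arrays to the control mean. The same held at 6 of the 7 members, all but HY5, although HYH and FLS-03430 still stood 1.51 and 1.03 above the control mean there. For FLS-03430 this was close to a tie, with labelled replicate 1 also at 1.03. The share of all tested probes at which this held was not computed, so these counts cannot be read as particular to these loci. Labelled replicate 2 shared scan 2 with control replicates 2 and 3, and the part of scan in this was not tested.

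**Figure D3:**
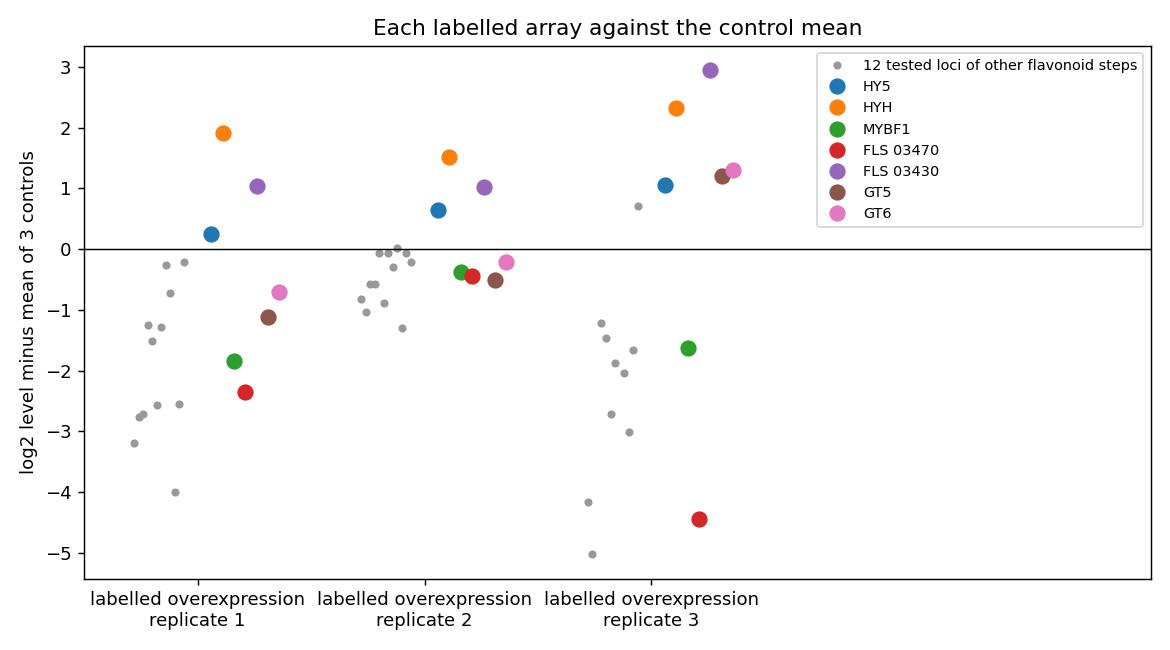
Log2 level minus the mean of the controls (vertical axis) on each labelled overexpression array, for the 7 loci (large coloured points) and the 12 tested loci of other flavonoid steps (small grey points; outlier spots are not shown). HYH, HY5 and FLS-03430 are above 0 on all labelled arrays, and MYBF1 and FLS-03470 lie among the grey points, close to 0 on replicate 2.

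Loci with nearby numbers were then examined, within 100 of a member's number under the same prefix. None passed the adjusted limma threshold (0 of 11, 17, 17, 12 and 15 tested around HY5, HYH, MYBF1, the flavonol synthases and the glycosyltransferases), and 15 of these 72 had an unadjusted p under 0.05, against 15.1% of all probes. HYH differed in sign from most of its neighbours, of which 13 of 17 had a negative difference, down to -1.88 at VIT_05s0020g01160, and the highest was 0.81. Around MYBF1, 13 of 17 were also negative, with a range of -2.13 to 0.33. The lowest of these was fitted without labelled replicate 3, an outlier spot with a log2 level of -2.40, above every control. Around HY5 the range was -1.23 to 0.89. Around the flavonol synthases it was -1.15 to 1.47, the highest being VIT_18s0001g03410 (SE 0.63, adjusted p 0.367), so that FLS-03470 and FLS-03430, at -2.41 and 1.67, lay outside the range of their neighbours at opposite ends. Between GT5 and GT6 in number, VIT_11s0052g01620 had a difference of -2.54 (SE 0.83, adjusted p 0.241), while 11 of the 15 tested neighbours there were positive.

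**Figure D4:**
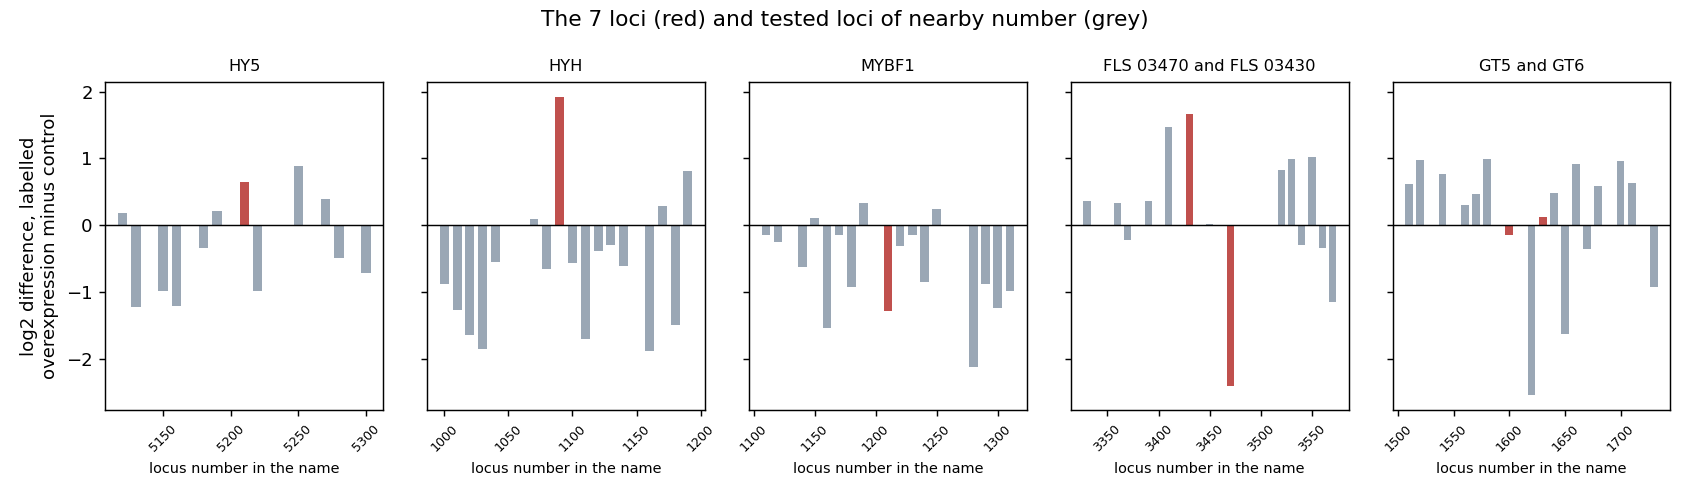
Fitted log2 difference (labelled overexpression minus control, vertical axis) of the 7 loci (red) and of tested loci with nearby numbers (grey), placed by the number at the end of the locus name. HYH stands above neighbours that are mostly negative, and the flavonol synthases point in opposite directions.

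The probe most like each locus over the 6 arrays was found by Pearson's r among 8552 probes that passed the background mark throughout, were free of outlier spots and had an SD of at least 0.5. With this many candidates and 6 arrays a high r is found for any probe, so these are descriptions with no p. The nearest probe was XLOC_017087 for HY5 (r 0.996), VIT_05s0020g05060 for HYH (r 0.997), VIT_13s0156g00110 for MYBF1 (r 0.998) and VIT_07s0104g01700 for FLS-03470 (r 0.998). It was XLOC_009444 for FLS-03430 (r 0.999), VIT_00s0421g00040 for GT5 (r 0.998) and VIT_14s0066g01390 for GT6 (r 0.994). No locus had another of the 7 as its nearest probe.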

How the data were processed

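Each scanner file held 1 array of 1 colour (Cy3). The intensity of each spot, per the file headers, came from Agilent Feature Extraction 10.5.1.1 run by the authors, with background and spatial trend taken out array by array. Other columns, per the file headers, mark with 0 or 1 whether a spot was an outlier, saturated, or well above background. A deposited processed table of intensity values for 23065 probes was an alternative; how it was made is not given in the sources used here. Groups came from the sample titles.

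Log2 processed signals, less the log2 75th percentile of their own array, were fitted with limma 3.58.1 in R 4.3.3 (lmFit, eBayes, no covariate). Outlier spots were set to missing, each group had to keep 2 usable spots, and 1 group or both had to be well above background throughout. P-values were adjusted over all 23752 probes. The fit was also run on simulated data with the same SD for both groups at each probe. The labelled arrays here were more spread than the controls, so that run does not show how the fit behaves under unequal spread. The members and lists were chosen with earlier results of these data known. All members are named, as are the nearest probe of each, the extremes of the flavonoid list and the largest differences among neighbours in 3 regions. No locus name (0) was found in the reference gene table, so no position is given. The labels speak of biological replicates. The number of arrays limits the precision. Alternatives covered background correction, normalization, filters, outlier spots, the processed table, blocks, array weights and leaving out each array.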

Additional observations from a re-analysis of the deposited data

How the results depend on the processing

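Of the 7 loci, 0 passed the threshold in limma under every alternative but the processed table, where 2 did, HYH (1.70, adjusted p 0.0119) and FLS-03430 (1.03, adjusted p 0.0267), against 13.5% of its probes (3114). Its column of labelled overexpression replicate 3 was within 0.1% of a scaled mean of the scanner signals of labelled replicates 1 and 2 at 99.96% of probes, all 7 loci included. Without that column, 0 of the 7 and 94 of all probes passed. The signs of HY5, HYH, MYBF1 and both flavonol synthases were kept in all 18 alternatives, but groups that do not overlap fix the sign for HY5, HYH and FLS-03430 when an array is left out. The alternatives also overlap in part. With slide as a block, the differences of the 7 loci equalled those without labelled replicate 3. Scan as a block also took that array out of the difference. The adjusted p ran from 0.0119 to 0.391 for HYH, and from 0.0267 to 0.714 for FLS-03430.

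The difference of GT6 became -0.43 in the processed table, -0.46 with that column left out, -0.36 with scan as a block, -0.46 with slide as a block and -0.36 with array weights. Leaving out 1 array gave 0.44 to 0.85 for HY5, 1.71 to 2.12 for HYH, -1.73 to -1.0 for MYBF1, -3.39 to -1.39 for FLS-03470, 1.03 to 1.99 for FLS-03430, -0.82 to 0.34 for GT5 and -0.46 to 0.54 for GT6. GT5 reversed without control replicate 3 (0.11), labelled overexpression replicate 1 (0.34) or 2 (0.04), and GT6 without control replicate 1 (-0.11) or labelled overexpression replicate 3 (-0.46).

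The count over all probes, 19, became 0 with normexp (1536 at an unadjusted p under 0.05), 0 without a filter on dim probes (3404) and 0 with the replicate block (3096). It was 7 with the filter on all 6 arrays, 45 with scan and 69 with slide as a block, and 228 with array weights. Leaving out 1 array gave 0 to 116: 0 without any control array or labelled overexpression replicate 1 (2087 to 2950 unadjusted), 116 without labelled overexpression replicate 2 and 101 without replicate 3. In the flavonoid list 1 locus passed in the processed table (VIT_13s0067g03820, -0.87) and 1 without labelled overexpression replicate 2 (VIT_14s0068g00920, -3.68) (leaving out 1 array gave 0 to 1). The causes were not tested. With the replicate block the 7 differences had the same values as without it (HYH 1.91, adjusted p 0.261). Across probes, deviations from the group means correlated at 0.253, 0.0499 and -0.0149 between control and labelled arrays of the same number. Between those of different number the correlations ran from -0.329 to 0.283, so the numbers were not taken as pairs.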
